A study of Mus musculus with 15 samples.

Results

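The genes described here are 10 immediate early genes, *Fos*, *Fosb*, *Junb*, *Egr1*, *Egr2*, *Egr3*, *Arc*, *Nr4a1*, *Ier2* and *Dusp1*. They are given as a list of symbols, out of 35142 mouse genes to which the estimated reads of the deposited transcripts were summed, and all 10 passed the filter on low counts that left 15360 genes for testing. The RNA came from 15 cultures of dissociated cerebellar cells of wild-type C57BL/6 pups (postnatal days 0 to 4), grown in Neurobasal Plus medium with B27 Plus. On day 14 in vitro, recombinant murine IL-12p70 (IL-12) was added for 18 h at 30 ng/ml (5 cultures) or 100 ng/ml (5 cultures), and the other 5 were left unstimulated. Whether the unstimulated cultures received a vehicle or the same handling is not stated. The sources used here do not state whether the cultures of a group came from separate preparations, so the p-values measure the spread between these cultures, which may be technical.

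Immediate early genes are transcribed within minutes of a stimulus from factors that are already in the cell, without new protein synthesis, and most of their mRNAs are short-lived. In neurons they follow synaptic activity and calcium entry, and in glia and other cells they follow growth factors, cytokines and stress. An 18 h exposure therefore reads their level long after the first pulse that a stimulus may give. The members fall into activator protein 1 (AP-1) subunits (*Fos*, *Fosb*, *Junb*), zinc-finger factors of the EGR family (*Egr1*, *Egr2*, *Egr3*), the orphan nuclear receptor gene *Nr4a1*, the transcriptional regulator gene *Ier2*, the synaptic gene *Arc*, whose product promotes removal of AMPA receptors from synapses, and *Dusp1*, a phosphatase gene whose product switches off MAP kinases.

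The stretches before the annotated starts of the 4 genes whose level changed at 100 ng/ml are printed below. That of *Junb*, an abundant gene that did not pass the test, is printed beside them. All were read from GRCm39 at the canonical GENCODE starts and are written 5′ to 3′ on the strand of the gene. Capitals mark the cyclic AMP response element (CRE, TGACGTCA), its half-site (TGACG, either strand) and the CArG box, to which serum response factor binds. The stretch of *Fos* lies at chr12:85520338-85520627 (plus strand), that of *Dusp1* at chr17:26727494-26727693 (minus), that of *Ier2* at chr8:85389484-85389683 (minus), that of *Nr4a1* at chr15:101164460-101164657 (plus) and that of *Junb* at chr8:85705348-85705547 (minus). Those of *Dusp1* and *Nr4a1* lie inside the annotated spans of these genes, which have longer transcripts with starts further upstream.
Fos: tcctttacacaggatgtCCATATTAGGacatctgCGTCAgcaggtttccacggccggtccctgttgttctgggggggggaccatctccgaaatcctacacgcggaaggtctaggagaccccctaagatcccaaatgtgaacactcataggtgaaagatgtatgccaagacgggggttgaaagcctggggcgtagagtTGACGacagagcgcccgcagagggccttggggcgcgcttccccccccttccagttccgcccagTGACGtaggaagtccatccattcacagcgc
Dusp1: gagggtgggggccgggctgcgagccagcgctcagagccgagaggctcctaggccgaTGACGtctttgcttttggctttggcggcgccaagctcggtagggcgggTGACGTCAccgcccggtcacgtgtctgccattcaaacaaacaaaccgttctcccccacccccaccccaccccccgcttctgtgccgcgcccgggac
Ier2: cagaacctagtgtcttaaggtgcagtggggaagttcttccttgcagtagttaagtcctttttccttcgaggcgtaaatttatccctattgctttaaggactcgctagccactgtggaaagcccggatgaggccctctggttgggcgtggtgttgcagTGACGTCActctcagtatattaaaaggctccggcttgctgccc
Nr4a1: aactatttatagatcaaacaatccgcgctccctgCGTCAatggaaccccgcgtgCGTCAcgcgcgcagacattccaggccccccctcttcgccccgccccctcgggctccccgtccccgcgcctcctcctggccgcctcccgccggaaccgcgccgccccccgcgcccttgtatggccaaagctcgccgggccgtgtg
Junb: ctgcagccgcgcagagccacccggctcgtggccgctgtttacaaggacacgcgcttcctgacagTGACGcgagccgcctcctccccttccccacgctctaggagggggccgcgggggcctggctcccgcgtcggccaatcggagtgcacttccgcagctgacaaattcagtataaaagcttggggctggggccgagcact
A full CRE stood at bases -96 to -89 of *Dusp1* and -43 to -36 of *Ier2*, counted from the base before the start as -1. *Fos* had a CArG box at -303 to -294 and a CRE half-site at -60 to -56. Over the window from 250 bases before to 50 after the start, the full CRE was found in 2 of the 10 genes and in 2.45% of 21738 promoters, and the half-site, which every full CRE contains, in 9 of 10 (all but *Arc*) and in 22.6%. The EGR letters GCGNGGGCG were found in 3 (*Fosb*, *Arc* and *Nr4a1*; 6.22% of promoters) and the CArG box in 2 (*Egr2* and *Egr3*; 1.54%). In 400 bases before the start the CArG box was found in 4 genes, *Fos* and *Fosb* among them (2.21%). The letters of an AP-1 site, TGANTCA, were in none of the 10 (7.14% of promoters), and those of a STAT site, TTCNNNGAA, were in *Egr1* alone (8.81%). Both strands were searched, and a match is a description of letters, not a bound site.

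The deposited estimates held 25746096 to 38435850 reads per culture. IL-12 changed 9.77% of the genes tested at 100 ng/ml (FDR under 0.05) and 7.87% at 30 ng/ml, and without replicate 2 of the 100 ng/ml group the number of genes called at 100 ng/ml went from 1500 to 2932. The labels call the cells neurons. In the unstimulated cultures 14 markers of cerebellar neurons summed to 197 to 260 TPM (a level corrected for transcript length and library size), with the medians of *Pcp2* and *Slc17a6* under 1 TPM, against 8266 to 11690 TPM for 12 microglia markers, 3816 to 4277 TPM for 10 astrocyte markers and 6267 to 9287 TPM for 10 markers of the oligodendrocyte lineage. The RNA is that of a mixed culture, and the cell type that holds each member's mRNA cannot be read from it. In bulk RNA, fewer cells of a type and less RNA per cell cannot be told apart.

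In unstimulated cultures the 10 genes spanned a wide range of levels. *Fos* had a median of 102 TPM (88.4 to 108), *Junb* 81.4 TPM, *Dusp1* 43.1 TPM and *Ier2* 40.1 TPM. *Arc* followed at 7.61 TPM, *Nr4a1* at 6.33 TPM, *Egr2* at 4.29 TPM, *Egr1* at 2.25 TPM and *Egr3* at 1.66 TPM, with *Fosb* last at 0.761 TPM. The values of *Fos* and *Junb* overlapped between cultures, as did those of *Dusp1* and *Ier2*, of *Arc* and *Nr4a1*, and of *Egr1* and *Egr3*, whereas the other neighbours in this order did not overlap. The level of *Fos* was above that of 89.9% of the genes tested, and that of *Fosb* above that of 4.69%. *Fos*, *Junb*, *Dusp1* and *Ier2* thus stood well above the other members, among them *Fosb*, the remaining AP-1 subunit gene of the list. Between unstimulated cultures the median coefficient of variation was 10.1% for the members and 7.0% over all genes tested, which were not matched for level. It was 4.3% to 8.3% for *Fos*, *Junb*, *Dusp1* and *Ier2*, and 9.5% to 23.8% for the other members, which had lower levels. *Fos* had 1749 to 3455 reads per culture, *Egr1* 87 to 229, *Egr3* 59 to 133 and *Fosb* 23 to 69.

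The first comparison asks what 18 h of 100 ng/ml IL-12 did to these genes. *Fos*, *Dusp1*, *Nr4a1* and *Ier2* fell, by 16.2% to 22.0% of their mean level, and no member rose. These 4 of 10 genes stand against 9.77% of all genes called and 3.93% called lower in this comparison. In 3 of them, *Fos*, *Dusp1* and *Nr4a1*, no stimulated culture reached the unstimulated range (2.84% of all genes). Each of the 10 fold changes was below 0, against 51.3% of all genes, and their median was -0.28 on the log2 scale against -0.004 for all genes tested. The list was chosen with earlier results of these data known, so these shares, here and below, describe the list and do not test it. Of 32 other immediate early genes tested, 15 had a fold change below 0 at this concentration. The genes called thus include an AP-1 subunit, a nuclear receptor, the phosphatase that restrains MAP kinases, and *Ier2*.

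*Fos* encodes the subunit that pairs with Jun proteins to form AP-1. Its normalized counts (CPM, counts relative to library size, scaled with TMM factors) in unstimulated replicates 1 to 5 were 90.3, 99.4, 82.7, 83.6 and 91.8. At 30 ng/ml they were 78.3, 82.6, 76.7, 72.6 and 90.6 CPM, and at 100 ng/ml 72.5, 68.4, 65.6, 70.2 and 72.6 CPM. Every culture at 100 ng/ml was below every unstimulated culture and, narrowly, below every culture at 30 ng/ml, while the 30 ng/ml and unstimulated cultures overlapped. The mean went from 89.6 ± 6.80 to 69.9 ± 2.94 CPM (SD, n = 5 each), a log2 fold change of -0.36 ± 0.06 (SE) with an adjusted p of 0.00119 in edgeR's quasi-likelihood test with Benjamini-Hochberg correction over all genes. The change at 30 ng/ml was -0.16 ± 0.06 and missed the threshold (adjusted p = 0.112, edgeR).

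The other AP-1 subunits did not pass the test. *Junb*, whose product can both activate and restrain AP-1 targets, had 76.1, 81.5, 80.4, 94.4 and 85.6 CPM in unstimulated cultures and 83.4, 78.4, 76.7, 79.0 and 72.2 CPM at 100 ng/ml. The groups overlapped widely, and the log2 fold change was -0.10 with a 95% interval of -0.26 to 0.06 (edgeR, adjusted p = 0.439). *Fosb*, the member with the fewest reads, had 1.80, 1.0, 1.42, 1.15 and 1.19 CPM without IL-12 and 0.846, 0.939, 0.875, 0.774 and 1.14 CPM at 100 ng/ml. Most stimulated cultures lay under the lowest unstimulated one, but replicate 5 did not. Its log2 fold change of -0.53 had an interval of -0.91 to -0.16 and an adjusted p of 0.0682 (edgeR). The sizes differ between the 3 subunits, and the differences between them were not tested.

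*Dusp1* is induced by MAP kinase signaling and its product dephosphorylates p38, JNK and ERK kinases. Its levels were 39.5, 45.7, 40.8, 44.5 and 42.9 CPM in unstimulated cultures, 36.6, 30.9, 33.9, 40.8 and 41.5 CPM at 30 ng/ml, and 36.4, 30.4, 35.1, 33.0 and 32.3 CPM at 100 ng/ml. All cultures at 100 ng/ml were below all unstimulated ones, and those at 30 ng/ml reached into both groups. The mean fell from 42.7 ± 2.55 to 33.4 ± 2.36 CPM (SD, n = 5), with a log2 fold change of -0.35 ± 0.07 (SE; edgeR, adjusted p = 0.00657). The change at 30 ng/ml was -0.22 ± 0.07 (edgeR, adjusted p = 0.0821).

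*Ier2* encodes a nuclear protein that is induced by growth factors and takes part in transcriptional regulation. It had 33.3, 34.8, 34.6, 37.4 and 34.6 CPM without IL-12 and 28.5, 29.3, 30.1, 29.8 and 32.7 CPM at 30 ng/ml. At 100 ng/ml it had 34.2, 27.2, 28.9, 28.4 and 27.6 CPM. Replicate 1 of the 100 ng/ml group lay within the unstimulated range and the other 4 lay under it, whereas all cultures at 30 ng/ml lay under it. *Ier2* was the member called at both concentrations, with a log2 fold change of -0.26 ± 0.06 at 100 ng/ml (edgeR, adjusted p = 0.0123) and -0.22 ± 0.06 at 30 ng/ml (edgeR, adjusted p = 0.0323). The call at 30 ng/ml was made in 14 of 25 other settings and was lost, for example, without unstimulated replicate 4 (adjusted p = 0.0882, edgeR).

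*Nr4a1* encodes a nuclear receptor that acts without a known ligand. Its levels were 6.95, 7.64, 8.36, 8.71 and 7.26 CPM in unstimulated cultures, 7.30, 6.36, 5.69, 6.77 and 7.11 CPM at 30 ng/ml, and 6.61, 5.52, 6.74, 6.22 and 6.56 CPM at 100 ng/ml. The highest culture at 100 ng/ml was just below the lowest unstimulated culture, and the 30 ng/ml group overlapped both. The log2 fold change of -0.29 ± 0.09 at 100 ng/ml had an adjusted p of 0.0417 (edgeR), close to the threshold. The call held in 9 of 25 other settings, over which the adjusted p ranged from 0.0222 to 0.106, and leaving out any 1 unstimulated culture but replicate 1, any 1 culture at 100 ng/ml, or replicate 2 or 4 of the 30 ng/ml group ended it. For 30 ng/ml the log2 fold change was -0.23 ± 0.09 (edgeR, adjusted p = 0.126).

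**Figure D1:**
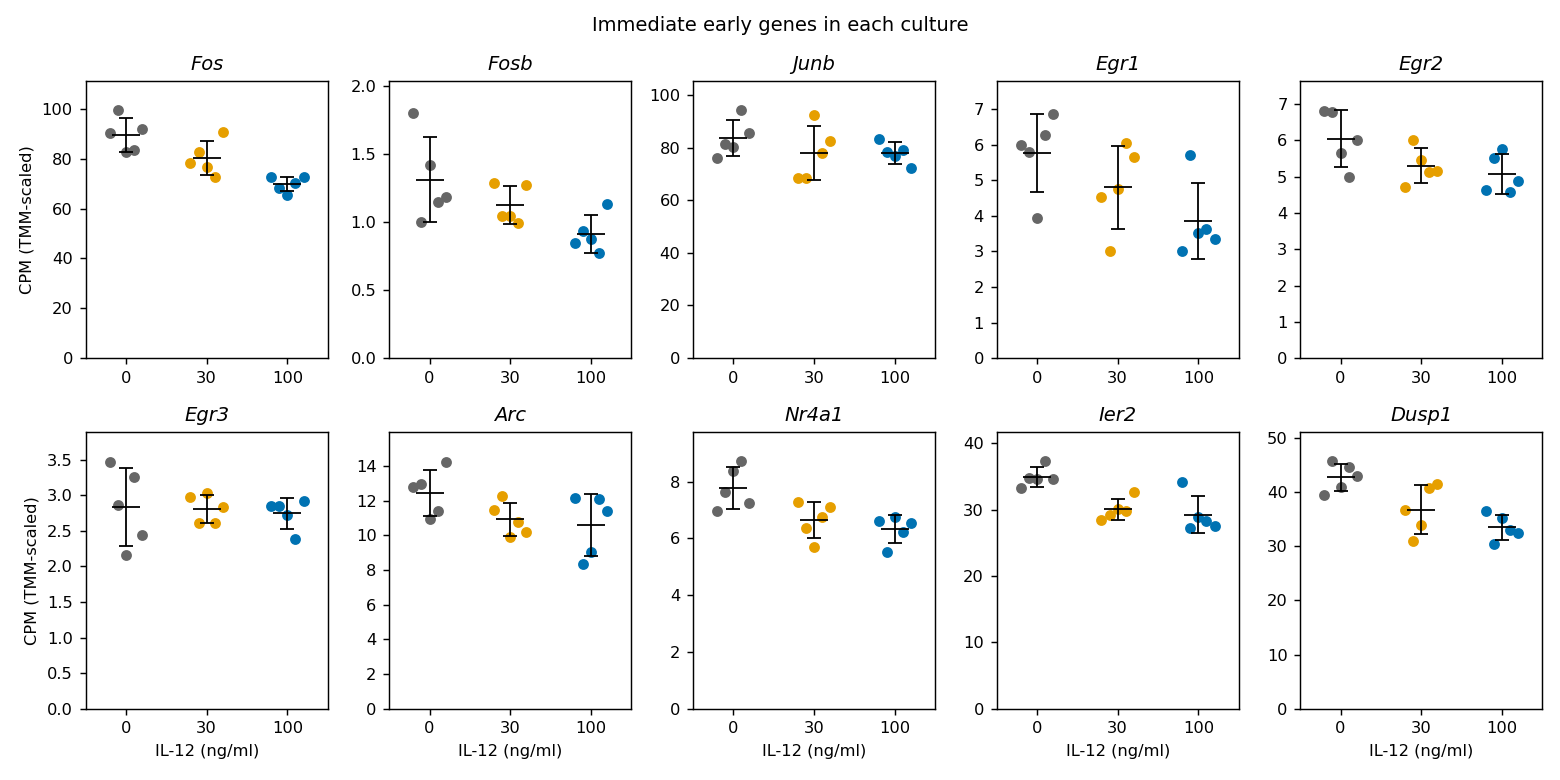
Normalized counts (CPM scaled with TMM, y axes from 0) of the 10 genes in each of 5 cultures without IL-12 (0), with 30 ng/ml and with 100 ng/ml; points are cultures, bars the mean and SD. *Fos*, *Dusp1* and *Nr4a1* at 100 ng/ml lie under the unstimulated range in all 5 cultures, while a single culture stands high for *Egr1* (5.71 CPM) and *Ier2* (34.2 CPM).

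The EGR factors were at low levels and none passed the test. *Egr1*, whose product activates growth and plasticity genes, had the lowest log2 fold change of the 10 genes. Its levels were 5.98, 5.81, 3.95, 6.27 and 6.88 CPM without IL-12, 4.52, 3.02, 4.75, 6.05 and 5.66 CPM at 30 ng/ml, and 3.01, 5.71, 3.53, 3.63 and 3.35 CPM at 100 ng/ml. Replicate 2 of the 100 ng/ml group stood apart from its group and unstimulated replicate 3 stood low, so that the groups overlapped. The log2 fold change was -0.60 ± 0.19 with an interval of -1.0 to -0.20 (edgeR, adjusted p = 0.0566). Without replicate 2 of the 100 ng/ml group it was -0.77 with an adjusted p of 0.00778, and without unstimulated replicate 3 it was -0.71 with an adjusted p of 0.0283 (edgeR).

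*Egr2*, known from myelinating Schwann cells and from immune cells, had 6.82, 6.78, 5.66, 4.98 and 6.00 CPM without IL-12 and 4.64, 5.52, 5.77, 4.57 and 4.87 CPM at 100 ng/ml, with overlapping groups. Its log2 fold change was -0.26 (edgeR, adjusted p = 0.118), but with counts corrected for transcript length it was 0.01, and the cause of this turn was not tested. *Egr3*, an activity-induced relative, had 2.16 to 3.48 CPM without IL-12, 2.61 to 3.03 CPM at 30 ng/ml and 2.39 to 2.91 CPM at 100 ng/ml. The IL-12 groups fell inside the unstimulated range, with a log2 fold change of -0.06 and an interval of -0.32 to 0.21 at 100 ng/ml (edgeR, adjusted p = 0.823). Its sign turned without unstimulated replicate 1 (0.03).

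*Arc* had 12.8, 12.9, 10.9, 11.4 and 14.2 CPM without IL-12 and 12.2, 8.33, 9.04, 12.1 and 11.4 CPM at 100 ng/ml. At 100 ng/ml 2 cultures lay under the unstimulated range and 3 lay within it. The log2 fold change of -0.23 had an interval of -0.45 to -0.01 and an adjusted p of 0.18 (edgeR). The intervals of *Arc* and *Egr2* (-0.47 to -0.04) at 100 ng/ml lay below 0, and that of *Egr3* spanned 0. None of these genes passed the threshold after adjustment over all genes.

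The lower concentration gave 1 call among the 10 genes, *Ier2*, against 7.87% of all genes called and 3.71% called lower in that comparison, and *Ier2* was also the one member whose groups did not overlap (3.46% of all genes). All 10 log2 fold changes were again below 0 (49.9% of all genes were), from -0.27 for *Egr1* to -0.02 for *Egr3*, with a median of -0.21 against 0.0001 for all genes. Both concentrations were compared with the same 5 unstimulated cultures, so that the shared direction of the comparisons is no independent evidence. With both concentrations averaged, *Fos*, *Dusp1*, *Nr4a1* and *Ier2* were lower than in unstimulated cultures (log2 fold changes of -0.26, -0.28, -0.26 and -0.24; edgeR, adjusted p = 0.00378, 0.00794, 0.0317 and 0.00658), against 11.9% of all genes called and 5.22% called lower. All 10 values were below 0 (50.8% of all genes). The averaged call of *Nr4a1* was lost in 6 of 24 other settings, among them without unstimulated replicate 3 (adjusted p = 0.0931, edgeR) or replicate 4 (0.0983).

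**Figure D2:**
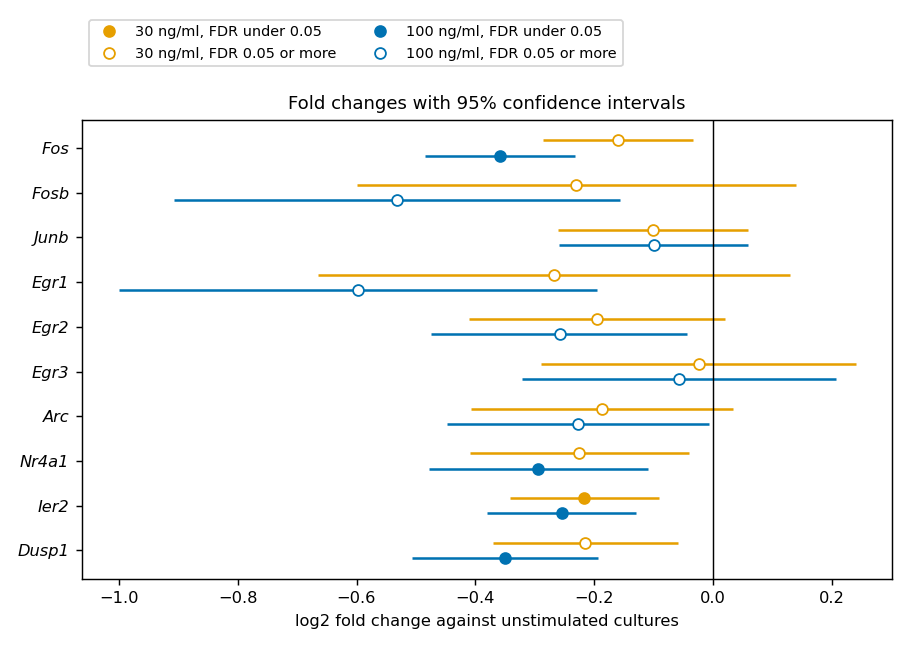
Log2 fold changes (x axis) of the 10 genes against unstimulated cultures with 95% confidence intervals from edgeR, at 30 ng/ml (orange) and 100 ng/ml (blue); filled points have an FDR under 0.05. All 20 points lie below 0, and 4 points at 100 ng/ml and 1 at 30 ng/ml are filled.

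Between the concentrations, edgeR and DESeq2 each called 0 of the 10 genes, against 0.579% of all genes called by edgeR. *Fos* was the 1 member with an unadjusted p under 0.05 (12.7% of all genes) and the 1 member whose groups did not overlap (1.23%), and its log2 fold change was -0.20 with an interval of -0.33 to -0.07 (edgeR, adjusted p = 0.18). For *Dusp1* the difference was -0.13 (interval -0.29 to 0.02), for *Ier2* -0.04 (-0.16 to 0.09) and for *Nr4a1* -0.07 (-0.26 to 0.12). For *Junb* it was 0.002 (-0.16 to 0.16), the one value above 0 (51.5% of all genes were below 0). The widest intervals were those of *Egr1*, at -0.33 (-0.74 to 0.08), and *Fosb*, at -0.30 (-0.69 to 0.08). No difference between the concentrations passed the threshold after adjustment over all genes, although the interval of *Fos* lay below 0. Averaged over the 10 genes on the log2 scale, relative to the unstimulated mean, the unstimulated cultures lay between -0.11 and 0.06, those at 30 ng/ml between -0.27 and -0.08 and those at 100 ng/ml between -0.34 and -0.26. Every culture at 100 ng/ml was below every unstimulated culture, and those at 30 ng/ml overlapped both unstimulated replicate 3 and the 100 ng/ml group.

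Within groups the genes did not move as a block. After subtraction of the group means, the 45 pairs among the 10 genes had a median Pearson correlation of 0.009 over the 15 cultures (all gene pairs, -0.003), with 24 pairs above 0. The highest was 0.60 for *Ier2* and *Dusp1*, followed by 0.58 for *Junb* and *Ier2* and 0.58 for *Nr4a1* and *Dusp1*, and the lowest was -0.60 for *Egr2* and *Nr4a1*. Genes of 1 library share its depth and handling, and low counts weaken a correlation. The 5 other genes whose within-group values were most like the members' mean were *Pcsk4* (r = 0.93), *Gm28035* (0.92), *Sugp2* (0.85), *Plekhg2* (0.84) and *Stx1a* (0.84), the highest among the genes with at least 1 CPM. Each was picked as a maximum over many genes in 15 cultures, so the choice alone can give high values. They do not show a link between these 5 genes and the members. None of the 5 was called at either concentration.

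Most of the estimated reads of *Fos* were of the coding transcript Fos-201 (86.1% to 91.2% per culture), and *Egr1* and *Ier2* have 1 transcript each. *Dusp1* was split between Dusp1-202 and Dusp1-206, both coding, and a retained-intron form, Dusp1-203. Dusp1-202 had 37.2% to 46.5% of its reads without IL-12 and 20.3% to 44.2% at 100 ng/ml, and Dusp1-206 had 39.2% to 47.7% and 40.1% to 61.4%. These shares of *Dusp1* overlapped between the groups. *Arc* was split between 2 transcripts that differ by 1 base in length (3055 and 3054 bases), with 39.5% to 100.0% given to Arc-201, and *Fosb* moved between forms from culture to culture (Fosb-201, 0 to 87.4%). The annotation places *Junb* across the opposite strand from *Prdx2* and *Dusp1* across *Ergic1* (opposite strand) and *Gm50275* (same strand), and how their shared reads were divided was not given in the sources used here.

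Among 34 other immediate early genes, 32 were tested. At 100 ng/ml 4 fell (*Rgs2*, *Atf3*, *Nr4a3* and *Zfp36*) and 1 rose (*Trib1*), and 15 of 32 had a fold change below 0. With 30 ng/ml 6 fell (these 4 with *Btg2* and *Plk2*) and *Trib1* rose. The median log2 fold changes were 0.02 and 0.01 (-0.004 and 0.0001 for all genes). *Nr4a3*, a relative of *Nr4a1*, had 13.5 to 15.3 CPM without IL-12, 10.9 to 12.5 CPM at 30 ng/ml and 9.87 to 11.6 CPM at 100 ng/ml, with no overlap between unstimulated and either IL-12 group and log2 fold changes of -0.32 at 30 ng/ml and -0.43 at 100 ng/ml (edgeR, adjusted p = 0.00388 and 0.000238). *Zfp36*, which encodes the mRNA decay factor tristetraprolin, fell by 0.35 and 0.49 on the log2 scale at 30 and 100 ng/ml (adjusted p = 0.00668 and 0.000451, edgeR). *Rgs2*, a brake on G-protein signaling, fell by 0.32 and 0.22 at these concentrations (adjusted p = 0.000666 and 0.0065, edgeR). *Trib1*, a pseudokinase gene, rose by 0.44 and 0.36 (adjusted p = 6.6e-05 and 0.000181, edgeR), with 32.7 to 38.4 CPM in unstimulated cultures, 46.9 to 52.6 CPM at 30 ng/ml and 44.4 to 48.0 CPM at 100 ng/ml.

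Upstream of these genes, 17 transcription factors and coactivators were tested. Of these, 12 at 30 ng/ml and 15 at 100 ng/ml had a fold change below 0, with a median of -0.05 at each concentration. *Mef2c* and *Mef2d* fell at both concentrations, with log2 fold changes for *Mef2c* of -0.45 and -0.41 at 30 and 100 ng/ml (adjusted p = 0.00937 and 0.013, edgeR) and for *Mef2d* of -0.16 and -0.23 (adjusted p = 0.0395 and 0.00578, edgeR). MEF2 factors drive activity-dependent genes in neurons, and *Mef2c* is also expressed in microglia. *Elk1*, a partner of serum response factor, rose at 30 ng/ml by 0.20 (adjusted p = 0.0135, edgeR) and had 0.07 at 100 ng/ml (adjusted p = 0.36, edgeR). *Mef2a* had -0.22 and -0.21 (adjusted p = 0.0786 and 0.087, edgeR). *Creb1* (-0.04 and -0.11) and *Srf* (0.09 and 0.06) did not pass the test at 30 or 100 ng/ml. They were named after their values were seen, as the factors that bind the CRE and the CArG box.

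Of 16 upstream kinases 3 fell at 100 ng/ml, namely *Rps6ka5*, which encodes the kinase MSK1 that phosphorylates CREB and histone H3, by 0.35, *Map2k1* by 0.14 and *Mapk9* by 0.15 (adjusted p = 0.00688, 0.0212 and 0.0337, edgeR). *Rps6ka5* also fell at 30 ng/ml, by 0.26 (adjusted p = 0.0361, edgeR), where *Map2k1* and *Mapk9* did not pass the test. Of 14 partners and brakes, *Zfp36l1* and *Dusp8* fell at 100 ng/ml, by 0.22 and 0.20, and *Rxrg* rose by 0.61 (adjusted p = 0.00333, 0.0372 and 0.0388, edgeR). None of the 14 was called at 30 ng/ml.

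Later genes of the neuronal activity response did not fall with the members. Of 10 such genes 8 were tested, and *Gadd45g*, a gene of the growth-arrest and DNA-damage family, and *Vgf*, a neurotrophin-induced peptide precursor gene, rose at both concentrations. *Gadd45g* went from 33.4 ± 1.99 CPM to 47.5 ± 4.14 at 30 ng/ml and 43.7 ± 4.44 at 100 ng/ml (SD, n = 5; edgeR, adjusted p = 0.000524 and 0.00242). *Vgf* went from 4.17 ± 0.549 to 6.05 ± 0.553 and 6.08 ± 1.1 CPM (SD, n = 5; edgeR, adjusted p = 0.0147 and 0.0108). No other gene of this list passed the test at either concentration.

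**Figure D3:**
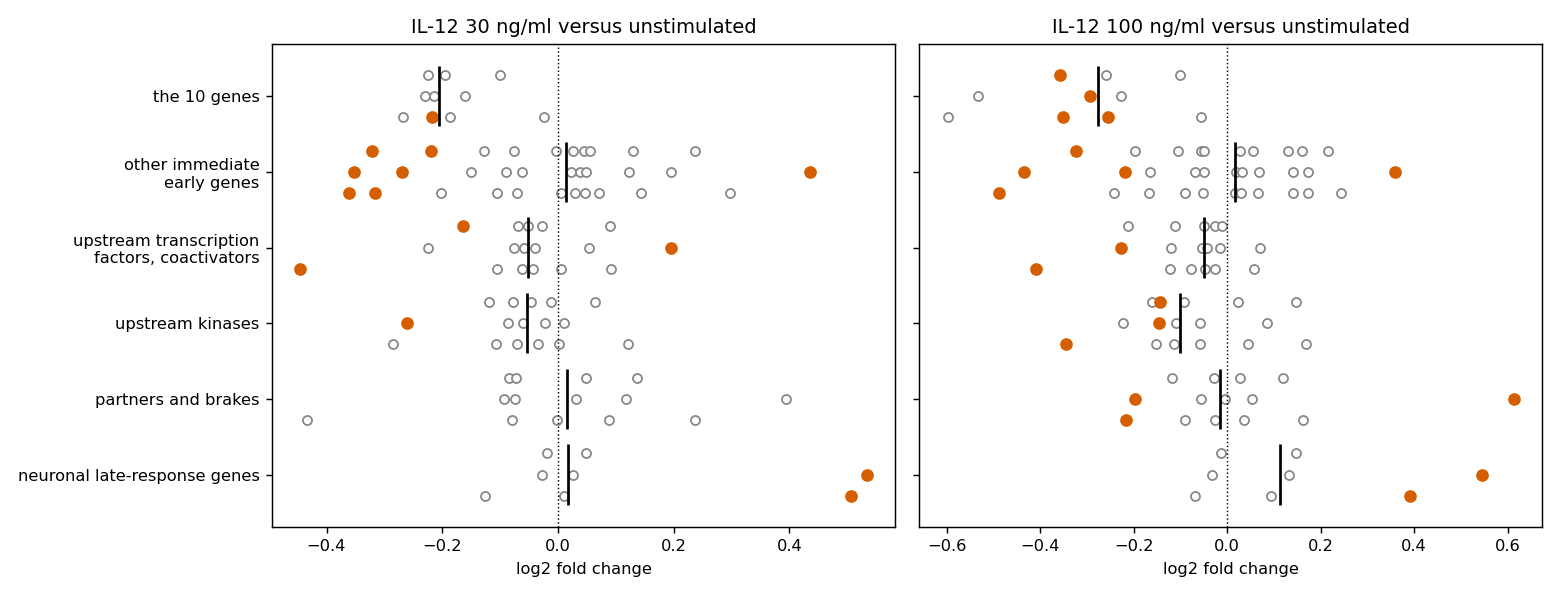
Log2 fold changes (x axes) of single genes by list at 30 ng/ml (left) and 100 ng/ml (right) against unstimulated cultures; orange points have an FDR under 0.05, open points do not, and the vertical bars are medians. The 10 genes lie left of 0 at both concentrations (medians -0.21 and -0.28), and the medians of the other 5 lists plotted lie between -0.10 and 0.11. Lists of cell type markers are not plotted. At 30 ng/ml the medians of the microglia and neuron markers (-0.42 and -0.49) were below that of the 10 genes, although the summed TPM of the neuron markers was not lower.

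Markers of other cells and signs of handling moved with the groups as follows. Of 12 microglia markers 8 fell at 30 ng/ml, and their summed level was 6586 to 8266 TPM against 8266 to 11690 TPM in unstimulated cultures. At 100 ng/ml none of the 12 was called (7928 to 10420 TPM). Fold changes were below 0 for 12 of the 12 at 30 ng/ml and for 10 of the 12 at 100 ng/ml. Among the oligodendrocyte-lineage markers, *Mag* and *Mbp* fell at 100 ng/ml (5605 to 6783 TPM summed) and *Cspg4* at 30 ng/ml (6316 to 7772 TPM). Most fold changes of this list were below 0 at each concentration, as for the microglia markers and the 10 immediate early genes. Of 10 astrocyte markers, *Aldoc* rose and *Gja1* fell at 100 ng/ml and 3 rose at 30 ng/ml (4233 to 4692 and 4521 to 5280 TPM, against 3816 to 4277 TPM). Of 12 cerebellar neuron markers tested, 1 rose (*Tubb3*) and 1 fell (*Calb1*) at 100 ng/ml, and 2 rose and 2 fell at 30 ng/ml, while 8 of the 12 were below 0 at each concentration. The neuron markers had median log2 fold changes of -0.49 and -0.24 at 30 and 100 ng/ml, beside -0.21 and -0.28 for the 10 immediate early genes. Their summed level was 240 to 280 and 223 to 264 TPM against 197 to 260 TPM, so the sum was not lower, unlike the median. A sum follows the abundant markers, among them *Tubb3*, whose mean went from 55.5 to 78.4 CPM at 30 ng/ml and 74.5 CPM at 100 ng/ml. For the microglia markers the medians were -0.42 and -0.12, for the oligodendrocyte lineage -0.08 and -0.15, for astrocytes 0.15 and -0.03, and for fibroblasts and meninges -0.07 and 0.17. Of 6 fibroblast and meningeal markers, *Col1a1* and *Pdgfrb* rose at 100 ng/ml (518 to 666 TPM summed against 418 to 560 TPM), and none of the endothelial or the T and NK cell markers tested was called, 5 of the 6 markers of T and NK cells having medians under 1 TPM. Of 8 heat-shock genes, a sign of stress in handling, *Hspb1* and *Hspa8* rose and *Hspa1a* fell at 100 ng/ml (log2 fold changes of 0.38, 0.16 and -0.28; edgeR, adjusted p = 0.00419, 0.00863 and 0.0296), and *Hsph1* rose at 30 ng/ml (0.16, adjusted p = 0.0235, edgeR). The part of these shifts in the levels of the immediate early genes was not tested.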

How the data were processed

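Bulk RNA-seq of 15 cultures was used. According to the methods, poly(A) RNA was sequenced with a stranded kit, and the authors aligned reads with STAR 2.7.8a and counted them per gene with featureCounts on GRCm39. The deposited values differ from that description: the authors deposited, for each of 121798 transcripts, an estimated count and TPM (already corrected for transcript length and depth), and the program is not given in the sources used here. The plan had assumed gene counts.

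Estimated counts and TPM were summed by transcript identifier with a later GENCODE annotation of GRCm39 (99.0% of transcripts matched; the rest held 0.677% to 0.712% of reads), and counts were rounded. Genes reaching 1 CPM in 2 or more cultures were scaled with TMM (factors 0.981 to 1.02) and tested in 1 model of the 3 groups with edgeR 4.0.16 (quasi-likelihood test, R 4.3.3) and Benjamini-Hochberg adjustment over 15360 genes, with calls at FDR under 0.05. All 10 members are named. Of each other list, up to 4 genes called in any comparison were named by their p in the mean of both concentrations, and other genes given in a count were named after their values were seen. The tests were tried on simulated counts. The members and lists were chosen with earlier results of these data known. Alternatives were DESeq2 1.42.0, limma 3.58.1, other normalizations, filters, thresholds and counts, a replicate block, and each culture left out. The 400-base promoter window and the STAT letters were chosen after seeing the data. Counting error alone limits genes such as *Fosb* (23 to 69 reads). The result of 1 cell type marker is not reported here.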

Additional observations from a re-analysis of the deposited data

Results flagged for a closer look

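In 2 of 30 groups of 5 cultures (10 genes in 3 groups), 1 culture stood apart from the rest by Dixon's criterion (critical value 0.71), which chance alone meets in about 1 of 20 groups. *Egr1* had 5.71 CPM in replicate 2 of the 100 ng/ml group, against 3.01 to 3.63 CPM in the other 4 cultures, with a gap of 0.769 of the range. Without that culture the log2 fold change of *Egr1* at 100 ng/ml was -0.77 (adjusted p = 0.00778, edgeR) in place of -0.60 (0.0566). *Ier2* had 34.2 CPM in replicate 1 of the same group, against 27.2 to 28.9 CPM in the others, with a gap of 0.761 of the range.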

How the results depend on the processing

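At 100 ng/ml *Fos*, *Dusp1* and *Ier2* passed the threshold in 25 of 25 alternatives, *Nr4a1* in 9, *Egr1* in 5 and *Fosb* in 1. Under limits of 0.01 on the unadjusted p and 0.5 on the size of the log2 fold change, the members called were 2 at 100 ng/ml (*Fosb* and *Egr1*), 0 at 30 ng/ml and 0 for the mean, among 308, 243 and 235 genes in all. At 30 ng/ml the members called were 2 with DESeq2 and 0 with library size alone, length-scaled counts or limma on log2(TPM + 0.5), and 0 to 2 when 1 culture was left out. They were 3 to 4 at 100 ng/ml and 4 to 5 for the mean when 1 culture was left out. For the mean, *Nr4a1* passed in 18 of 24 alternatives, and without unstimulated replicate 3 or 4 it was not among the 4 members called, whereas *Egr1* or *Egr2* was.

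All genes called numbered 946 at 100 ng/ml with only the groups compared, 896, 769 and 1191 with length-scaled counts (100 ng/ml, 30 ng/ml, mean), and 826, 51 and 1211 with limma (100 ng/ml, 100 against 30 ng/ml, mean). For 100 against 30 ng/ml, where 89 were called, DESeq2 called 247 and the likelihood-ratio test 253. Leaving out 1 culture gave 940 to 2932 genes at 100 ng/ml, 673 to 1668 at 30 ng/ml, 38 to 147 between concentrations and 1203 to 2837 for the mean, the highest at 100 ng/ml, between concentrations and for the mean being those without replicate 2 of the 100 ng/ml group.

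Deviations of same-numbered cultures had a median r of -0.02 over 15 pairs, 4 of them over 0.1, with 6 of 30 best matches. For different numbers the median was 0.002 over 60 pairs, 10 of them over 0.1. These values cannot show whether same-numbered cultures were prepared together, which the sources used here do not state. With the replicate block 3 members were called at 100 ng/ml, 0 at 30 ng/ml and 3 for the mean.

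Signs turned for members that were not called. With length-scaled counts *Egr2* had 0.0126 at 100 ng/ml and 0.149 for 100 against 30 ng/ml, and with limma 0.0803 for the latter. With limma *Egr3* had 0.0139 at 30 ng/ml, and *Junb* had -0.0154 for 100 against 30 ng/ml, where library size alone gave -0.0107. With 1 culture left out, *Egr3* ranged from -0.14 to 0.0329 at 100 ng/ml, -0.108 to 0.0652 at 30 ng/ml, -0.0556 to 0.0136 between concentrations and -0.124 to 0.049 for the mean. Between concentrations *Junb* then ranged from -0.04 to 0.0703 and *Arc* from -0.0933 to 0.0319. The cause was not tested.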
